A study of Chrysemys picta and Apalone spinifera with 20 samples.

Results

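The adrenal-kidney-gonad complexes (AKGs) of softshell turtle embryos at stage 15 were compared between warm (31 °C) and cool (26 °C) incubation. *Apalone spinifera*, the spiny softshell, has genotypic sex determination, so neither temperature sets the sex of its embryos. Members were chosen by stage, tissue and temperature: 2 of the 20 libraries of the series, 1 for each temperature, each a pool of several unsexed embryos from farm eggs incubated in moist sand, with no other treatment. The series also covers stages 9 (trunk), 12 (AKG), 19 and 22 (gonad) of *Apalone* at the same temperatures, and the same 5 stages of the painted turtle *Chrysemys picta*, whose sex is set by temperature. Embryos reached stage 15 sooner at 31 °C, and the mix of sexes in each pool is not given, so temperature cannot be told apart from the days of incubation, the sexes pooled or the dissection. With 1 library a side the difference has no replicate check.

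The AKG of a turtle embryo holds the mesonephros, a working embryonic kidney with glomeruli and tubules, beside the genital ridge and the adrenal precursors. Its tubule cells take up filtered protein and amino acids from the lumen, and some nephron segments of reptiles and amphibians carry motile cilia. At stage 15 the gonad is hard to separate from the tissue around it. Whether cells of the body wall, the vertebral column, muscle, nerve or liver came along with a complex is not recorded and was not tested. Marker genes of several of these tissues are given below.

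Values are read counts per annotated gene. The 26 °C library summed to 5607172 counts and the 31 °C library to 5544730. These were the 2 lowest totals of the 10 *Apalone* libraries, the highest being 9501484. Scaled counts are counts divided by the 75th percentile of the library relative to the geometric mean of the 10 *Apalone* libraries, and log2 ratios are 31 °C over 26 °C with a pseudocount of 1. Of 12678 annotated entries, 11721 had a count in either library and 6907 had at least 100 counts in sum. Among the latter the log2 ratio had a median of -0.02, and the middle 90% of entries lay between -0.89 and 0.93. Across these 6907 genes the 2 libraries correlated at r = 0.92 on log2 scaled counts. Over 9091 entries the warm stage 15 library correlated at r = 0.91 and 0.92 with the stage 12 libraries at 26 and 31 °C, and the cool one at 0.85 and 0.84. With the 4 gonad libraries the warm one correlated at 0.89 to 0.93 and the cool one at 0.89 to 0.93. Genes are not independent replicates, so these values describe the libraries only.

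By Fisher's exact test on read pairs, with adjusted p under 1e-10 as the call, 485 of 11721 entries differed between the 2 libraries, or 4.14%. Of these 215 (1.83%) were higher at 31 °C and 270 (2.30%) were lower. Scaled to library totals, 299 were higher and 204 lower, so the balance of directions rests on the scaling. The test compares these libraries and not the temperatures. It also follows depth: 109 of the 164 entries with at least 10000 counts were called (66.5%), many with small ratios. Of the 6907 entries with 100 counts or more 6.99% were called, 3.11% higher and 3.88% lower. Calls among the measured members of a gene list, which have any count, are to be read against 1.83% higher and 2.30% lower. Where most members have 100 counts or more, 3.11% and 3.88% are the closer shares. For lists of abundant genes even these are too low, as the call rate follows depth. At 26 and 31 °C the 20 RNA-binding and splicing genes summed to 69886 and 92780 counts. The 16 glycolytic genes summed to 34140 and 38024, and the 30 heat shock and chaperone genes to 61242 and 71562. A change of at least 2-fold was seen in 556 of the 6907 entries with 100 counts or more (8.05%), 286 higher (4.14%) and 270 lower (3.91%). Of the called entries 93 were at least 2-fold higher and 93 at least 2-fold lower, and 119 of the 485 carry no gene symbol.

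**Figure D1:**
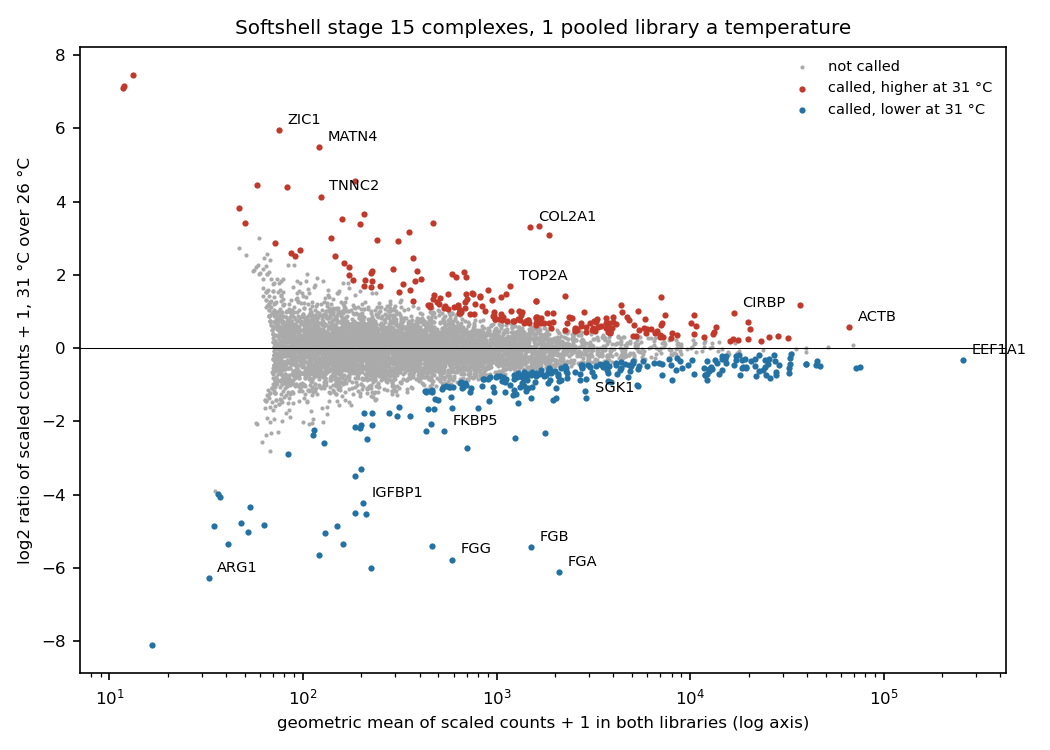
Log2 ratio of scaled counts plus 1, 31 °C over 26 °C, against the geometric mean of the 2 libraries (log axis) for the 6907 entries with at least 100 counts. Each point is an entry, red where called higher and blue where called lower. At low ratios calls appear mostly on the right, where counts are high. Of the labelled genes ARG1 at -6.27 and FGA at -6.12 lie lowest and ZIC1 at 5.96 highest.

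Of the gene lists, cartilage had the highest median ratio at 31 °C. Of 8 measured list members 6 were called higher and 0 lower, and all 7 with at least 100 counts were over 2-fold higher, with a median log2 ratio of 3.42 against -0.02 over all entries. COL2A1, the main collagen of cartilage, had 473 scaled counts at 26 °C and 4680 at 31 °C, a 9.90-fold difference (exact 95% counting interval 8.44 to 11.7). COL11A1, which forms fibrils with it, went from 635 to 5409, or 8.51-fold (7.41 to 9.82). COL9A1, a collagen on the surface of those fibrils, had 37.0 and 901 scaled counts, and COL9A2 11.4 and 271. MATN4, a matrix protein of the matrilin family, had 17.1 and 807 scaled counts (47.2-fold, 21.4 to 130). ACAN, the large proteoglycan of cartilage, rose from 14.2 to 162. SOX9, which drives the cartilage program and also acts in the testis, had 94 and 238 counts (log2 ratio 1.26) and was not called. All counting intervals cover counting error only.

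Of the 10 *Apalone* libraries the warm stage 15 one had the highest share of cartilage transcripts and the cool one the lowest. The cartilage list took 0.0166% of counts at 26 °C (Wilson 95% interval 0.0151% to 0.0181%) and 0.167% (0.163% to 0.172%) at 31 °C, against 0.114% and 0.143% at 26 and 31 °C at stage 12. It was 0.0765% and 0.0770% at stage 9 and lay between 0.0176% and 0.0761% at stages 19 and 22. COL2A1 had 3511 and 4874 scaled counts in the stage 12 libraries and 498 to 1251 at stages 19 and 22. In cartilage share alone, the warm complexes were thus closest to stage 12, and the cool ones to the 26 °C gonads of stage 22. This is not a likeness over all genes. In pooled tissue, fewer cells of a type and less RNA per cell cannot be told apart.

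Skeletal muscle genes were also higher at 31 °C: 5 of 18 measured members were called higher and 0 lower, with a median log2 ratio of 1.86 over the 11 with at least 100 counts. TNNC2, the calcium sensor of fast muscle, had 28.5 scaled counts at 26 °C and 517 at 31 °C (18.2-fold, 9.66 to 38.5). MYH7, a slow myosin heavy chain, had 85.5 and 663. ACTA1, the actin of skeletal muscle, had 185 and 801, TNNC1 of slow and cardiac muscle 108 and 395. CKM, the muscle creatine kinase, differed least of the called members, at log2 0.84. MYOZ1, a Z-disc protein, went the other way without a call, from 160 to 70 counts. ACTC1, the cardiac actin that embryonic skeletal muscle also uses, was outside the list and 10.1-fold higher (8.71 to 11.9), at 521 and 5284 scaled counts. MYL10, a myosin light chain, KLHL41, a sarcomere protein, and FHL1, a muscle LIM protein, had log2 ratios of 3.40, 3.003 and 2.67. The list took 0.0285% of counts at 26 °C and 0.0799% at 31 °C. Its share was 0.121% and 0.164% at stage 12 and reached 1.25% in the 31 °C gonads of stage 22, so the level of muscle transcripts varied between libraries elsewhere too.

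Several other genes with large ratios belonged to no list. ZIC1, a transcription factor of the dorsal neural tube and somites, had 8.55 scaled counts at 26 °C and 593 at 31 °C, the largest ratio among named genes with 200 counts or more (69.4-fold, 23.4 to 339). It had 3420 and 2975 scaled counts at stage 12 and at most 7.25 in the 4 gonad libraries. Its relatives ZIC2 (4 and 78 counts) and ZIC4 (4 and 54), named after their values were seen, had the same sign and were not called. FOXF2, a mesenchymal transcription factor also named after its values were seen, had 0 counts at 26 °C and 104 at 31 °C, at least 16.5-fold higher against a floor of 3 read pairs. FOXF2 was at 186 and 212 scaled counts at stage 12 and at 0 in all 4 gonad libraries. SEMA3A, a secreted axon guidance cue, had 45.6 and 539 scaled counts. OTOR, a secreted protein of cochlea and cartilage, had 117 and 1053, and ANGPTL1, a secreted angiopoietin-like protein, 59.8 and 346.

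Of 16 measured genes of neurons and the adrenal medulla 4 were called higher and 1 lower. GAP43, a growth cone protein, had 453 and 1261 scaled counts (2.79-fold, 2.32 to 3.36). The neuronal tubulin TUBB3 had 316 and 755, and the neurofilaments NEFM and NEFL had log2 ratios of 1.19 and 1.09. CHGA, the granule protein of chromaffin cells, had 410 and 94.7, 4.33-fold lower at 31 °C (2.97 to 6.46). DBH, which makes noradrenaline, had 60 and 64 counts. CHGA thus went against the neuronal genes called higher, while DBH was not called. NES, an intermediate filament of progenitors and podocytes, had 211 and 782 scaled counts. The part of cartilage, muscle and nerve cells in other differences was not tested.

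**Figure D2:**
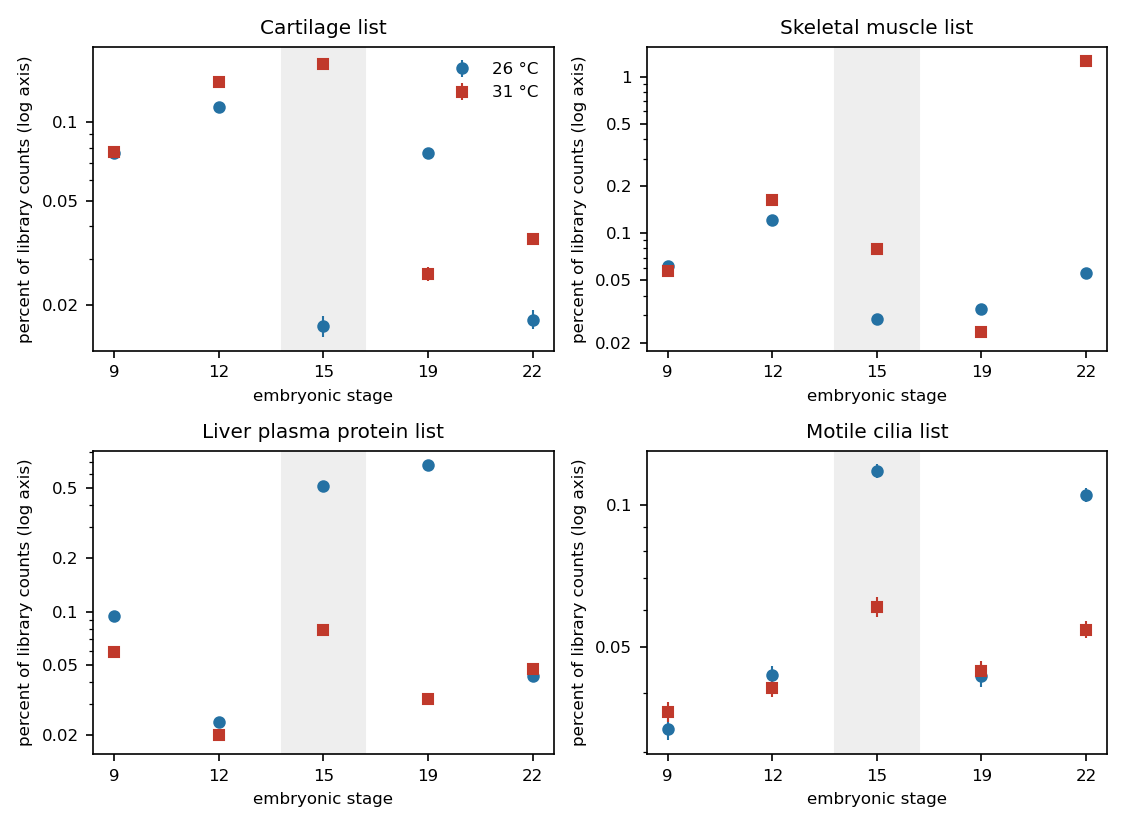
Percent of each library's counts (log axis) taken by the cartilage, skeletal muscle, liver plasma protein and motile cilia lists in the 10 *Apalone* libraries, by embryonic stage, with 26 °C as circles and 31 °C as squares. Bars are Wilson 95% intervals and cover counting error only. Stage 15 is shaded, where the cool library is low in cartilage genes (0.0166%) and high in liver (0.510%) and cilia genes (0.118%). The liver and cilia lists were drawn up after values were seen.

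Genes of the liver had the lowest median ratio of the lists. On a list of plasma proteins and liver enzymes, drawn up after the values were seen, 11 of 24 measured members were called lower and 1 higher, and 12 of the 16 with 100 counts or more were at least 2-fold lower, with a median log2 ratio of -4.37. Because of that choice the counts of this list are a description only. The fibrinogen chains, which form the clot, led it. FGA had 17592 scaled counts at 26 °C and 252 at 31 °C, 69.9-fold lower (56.9 to 86.7). FGB went from 9867 to 227 and FGG from 4350 to 78.5. SERPINF2 and SERPIND1, inhibitors of plasmin and thrombin, were lower by log2 -4.52 and -4.51. IGFBP1, a liver protein that binds insulin-like growth factors, had 886 and 46.0 scaled counts (19.2-fold lower, 11.8 to 33.5). ARG1, the urea cycle arginase, had 200 counts and 2, a ratio of 105 with a counting interval of 18.5 to 4197. TTR, a thyroid hormone carrier, had 86 counts and 0, at least 15.1-fold lower against the floor of 3 read pairs.

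Not every plasma protein followed. APOA1, which birds also make in other tissues, was called higher at log2 0.67, and APOB, the carrier of yolk lipid, had 1416 and 1434 counts. Members of the list took 0.510% of counts at 26 °C (0.502% to 0.519%) and 0.0791% at 31 °C (0.0758% to 0.0824%). The 26 °C gonads of stage 19 stood as high, at 0.670%, and the other libraries lay between 0.0200% and 0.0949%. FGA had 18635 scaled counts in the 26 °C stage 19 gonads and 12.4 in the 31 °C ones. Of the smaller liver and gut list, 4 of 9 measured members were called lower and 1 higher. All of these calls are also on the plasma protein list, so they are not a separate result. The 6 members of the smaller list with 100 counts or more had a median log2 ratio of -3.68.

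**Figure D3:**
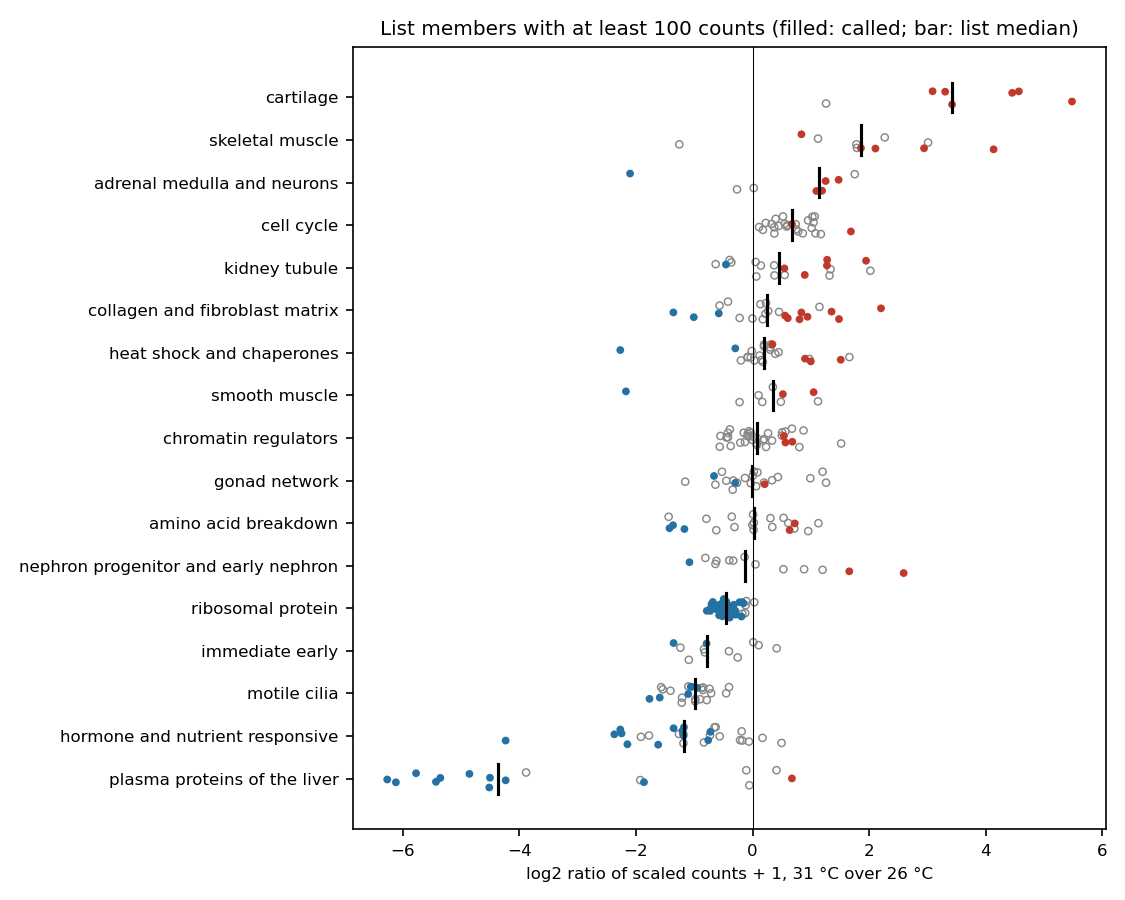
Log2 ratio of scaled counts plus 1, 31 °C over 26 °C, of each list member with at least 100 counts (points, filled where called) and the list median (bar), for 17 gene lists. Medians run from 3.42 for cartilage to -4.37 for liver plasma proteins, and the 48 ribosomal protein genes are bunched around -0.45. The liver plasma protein, motile cilia and hormone lists were drawn up after values were seen.

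The 55 symbols of the kidney tubule list gave 21 entries, of which 18 had 100 counts or more. LRP2, the megalin receptor that recovers filtered protein, had 5426 scaled counts at 26 °C and 10092 at 31 °C (1.86-fold, 1.76 to 1.97). CUBN, cubilin, its partner, had 1023 and 2477 (2.42-fold, 2.14 to 2.74). Of 21 measured tubule genes 5 were called higher and 1 lower, and 14 of the 18 with 100 counts or more had a positive log2 ratio, with a median of 0.46. SLC13A3, a dicarboxylate transporter, had 1025 and 2490 scaled counts, GAMT, which makes creatine, 353 and 1364, and CALB1, a calcium buffer of distal tubules, a log2 ratio of 0.55. FBP1, an enzyme of glucose synthesis, was lower at log2 -0.46. The list took 0.360% of counts (0.353% to 0.367%) in the cool library and 0.507% (0.498% to 0.515%) in the warm one. At 26 and 31 °C it took 0.0423% and 0.0395% at stage 9 and 0.0580% and 0.0809% in the stage 12 AKGs. In the gonads it took 0.181% and 0.165% at stage 19 and 0.353% and 0.286% at stage 22. The share thus did not follow the tissue label. HNF4A, a regulator of proximal tubule identity, had 218 and 238 counts.

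Of 15 measured genes of nephron progenitors and early nephrons 2 were called higher and 1 lower. SIX2, which keeps progenitors undifferentiated in mouse, had 34.2 and 211 scaled counts, and IRX3, a nephron patterning factor, 125 and 398. SALL1, needed for kidney formation in mouse, had 1068 and 504 (2.12-fold lower, 1.77 to 2.54). SIX2 was also higher at 31 °C in the other AKG and gonad pairs, at 234 and 427 scaled counts at stage 12, 60.4 and 401 at stage 19, and 39.6 and 302 at stage 22. Of 7 measured podocyte genes, those of the filter cells, 1 was called higher and 0 lower. That call is NES, given above with the neuronal genes. The 6 podocyte genes with 100 counts or more had a median log2 ratio of 0.39.

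Genes of motile cilia were lower at 31 °C. The list was drawn up after some of its members had been seen among the calls, so its count is a description only. All 23 members with 100 counts or more had a negative log2 ratio, from -1.77 to -0.40 with a median of -0.99, whereas 48.4% of all such entries were positive. Of 24 measured members 6 were called lower and 0 higher, and 3 were called under scaling to library totals. CFAP206, a protein of the radial spoke base, had 510 and 149 scaled counts (3.42-fold lower, 2.52 to 4.72). RFX3, a transcription factor of ciliated cells, was 2.07-fold lower (1.71 to 2.50), at 672 and 342 counts. The axonemal dynein chains DNAH5 and DNAH7, which power the beat, had 394 and 240, and 472 and 276 counts, and were not called. The list took 0.118% of counts at 26 °C and 0.0608% at 31 °C. The 26 °C gonads of stage 22 were the only other *Apalone* library above 0.1%, at 0.105% against 0.0545% at 31 °C, and there 22 of 22 members had a negative log2 ratio. Unlike the tubule list, which was higher at 31 °C, the cilia list was thus lower in the same complexes.

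Enzymes that break down amino acids went both ways. In the glycine cleavage system GLDC, the decarboxylase, had 3264 and 1267 scaled counts (2.58-fold lower, 2.31 to 2.88), and GCSH, the carrier protein, 3216 and 1197 (2.69-fold lower, 2.41 to 3.01). SHMT1, which links serine and glycine, was lower by log2 -1.17, a call lost when scaled to library totals. BHMT, which remethylates homocysteine with betaine, was higher, at 15461 and 25524 scaled counts (1.65-fold, 1.596 to 1.71). In all 2 of 27 measured members were called higher and 4 lower, and 3 and 2 under library totals.

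Chaperones differed modestly. Of 30 measured heat shock and chaperone genes 4 were called higher and 2 lower, and the 24 with 100 counts or more had a median log2 ratio of 0.20. HSP90AA1, the stress-inducible cytosolic HSP90, had 3142 scaled counts at 26 °C and 6278 at 31 °C (1.998-fold, 1.86 to 2.15). HSPA8, the constitutive HSP70, had 7634 and 14239 (1.87-fold, 1.78 to 1.95). SERPINH1, a collagen chaperone of the endoplasmic reticulum, had 442 and 1261 (2.86-fold, 2.38 to 3.45). FKBP4, a cochaperone of steroid receptors, was higher by log2 0.34, whereas the constitutive HSP90AB1 was lower by log2 -0.30. FKBP5, the steroid-induced cochaperone, had 1179 and 244 (4.84-fold lower, 3.85 to 6.15).

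The same genes in the other pairs show which of these differences are not peculiar to stage 15. SERPINH1 was higher at 31 °C in every *Apalone* pair, with 360 and 741 scaled counts at stage 9, 457 and 1523 at stage 12, 739 and 1513 at stage 19, and 486 and 1475 at stage 22. HSP90AA1 was higher at 31 °C at stages 9, 12, 15 and 19 but not at 22, where it had 7922 and 6600. CIRBP, an RNA-binding protein named for its induction by cold in mammals, was higher in the warm library, at 12057 and 23278 scaled counts (1.93-fold, 1.86 to 2.003). It was higher at 31 °C in the other 4 *Apalone* pairs too, with 26920 and 35173 at stage 9, 25084 and 31346 at stage 12, 13876 and 21444 at stage 19, and 17979 and 21065 at stage 22. HPRT1, a housekeeping gene of the study, had 521 and 395 scaled counts (log2 -0.40) and was not called (Fisher's exact test, adjusted p = 0.0531). Besides the upper quartile the study scaled to HPRT1 and the transferrin receptor gene, which was not done here. Scaling to HPRT1 alone would raise every log2 ratio.

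**Figure D4:**
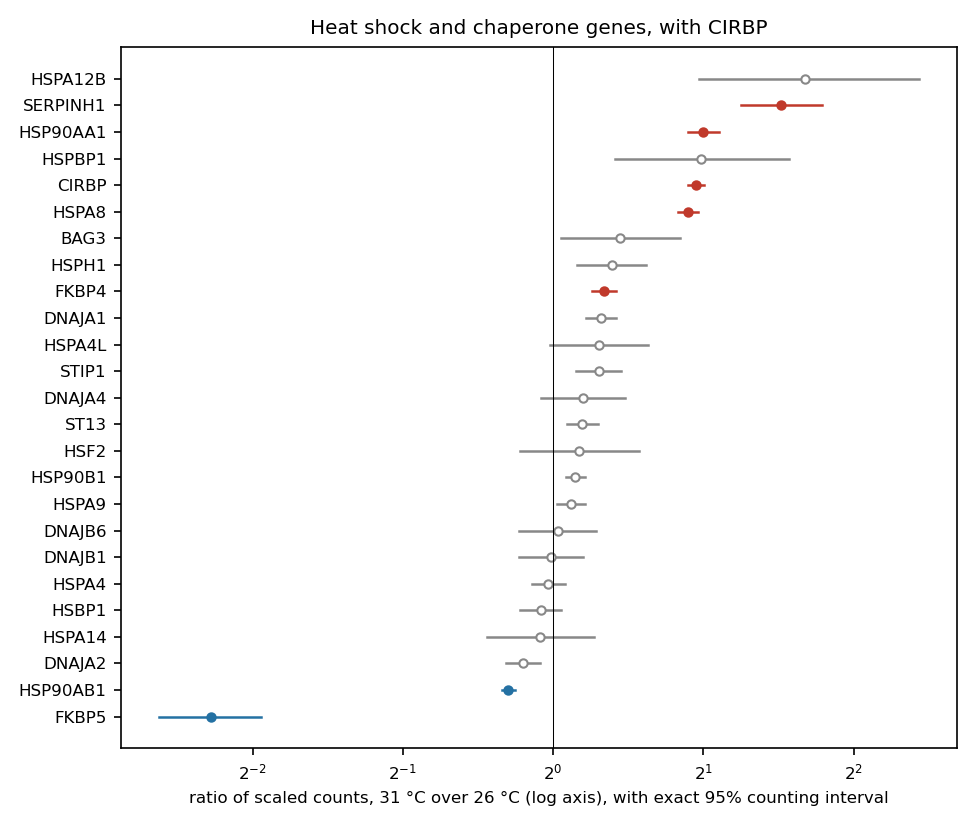
Ratio of scaled counts, 31 °C over 26 °C (log axis, base 2), with its exact 95% counting interval for the heat shock and chaperone genes with at least 100 counts and for CIRBP; filled points were called. HSP90AA1 (1.998-fold), CIRBP (1.93-fold) and HSPA8 (1.87-fold) lie close together, and FKBP5 stands alone on the left.

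A set of genes that steroid hormones, fasting or stress induce in vertebrates was higher in the cool complexes. The list of 39 was drawn up after several of its members had been seen to differ, so its counts are a description only. Of 30 measured members 12 were called lower at 31 °C and 0 higher, and 26 of the 28 with 100 counts or more had a negative log2 ratio, with a median of -1.18. SGK1, a kinase that corticosteroids induce and that regulates sodium transport in the kidney, had 4643 scaled counts at 26 °C and 1814 at 31 °C (2.56-fold lower, 2.34 to 2.81). CEBPD, a transcription factor induced by glucocorticoids and inflammation, had 943 and 198 (4.77-fold lower, 3.69 to 6.24). STC1, stanniocalcin, a calcium and phosphate regulating hormone, was lower by log2 -2.15 and UCP2, a mitochondrial carrier, by -2.37. IRS2, an adaptor of the insulin receptor, PIM3, a kinase, and ATF4, the factor of the amino acid stress response, had log2 ratios of -1.62, -1.20 and -1.18. The known glucocorticoid targets KLF9 (88 and 24 counts) and KLF15 (330 and 144) had the same sign and were not called, and PCK1, of glucose synthesis, had 248 and 168.

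The cool stage 15 library held the highest level of several of these genes. SGK1 had 335 to 579 scaled counts at stages 9 and 12 and 1201 to 2595 at stages 19 and 22, and FKBP5 had 103 to 166 and 354 to 696. In the stage 15 pair of *Chrysemys* the list had a median log2 ratio of 0.31, with 3 of 28 members called higher and 1 lower, and FKBP5 had 250 and 235 scaled counts. Others lowered at 31 °C were DIO3, which inactivates thyroid hormone (245 and 51.4 scaled counts), and AK5, an adenylate kinase (313 and 51.4). The DIO3 call was lost under 3 of 8 settings, among them library totals and DESeq2 size factors. Of 21 measured immediate early genes 2 were called lower, SGK1 and KLF6 (log2 -0.79), and 0 higher.

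Ribosomal protein genes were lower in the warm library by a small and even amount. Of 48 genes 42 were called lower and 0 higher, against 47.0% of all entries with at least 10000 counts called lower, and 47 of 48 had a negative log2 ratio. Their median was -0.45, and -0.36 with 35 called when scaled to library totals. HPRT1, given above, had a log2 ratio of -0.40, near that median. The entries with at least 10000 counts include ribosomal protein genes themselves, so that share is not independent of them. RPLP0, of the ribosomal stalk, had 89893 and 63442 scaled counts, and RPL5, which binds 5S RNA, 35847 and 21570. RPL18 had the lowest log2 ratio of those named, at -0.79. EEF1A1, the elongation factor that brings tRNA to the ribosome and the most abundant called gene with a symbol, had 288685 and 229828 (log2 -0.33), and PABPC1, the poly(A)-binding protein, was lower by log2 -0.34. Together the ribosomal genes took 14.6% of counts at 26 °C, the highest of the 10 *Apalone* libraries, and 11.5% at 31 °C, the others lying between 7.69% and 12.8%. The same direction was seen at stages 9 (34 called lower, 0 higher), 19 (42 and 0) and 22 (26 and 5) and in *Chrysemys* at stage 15 (37 and 3), but at stage 12 the genes were higher at 31 °C, with 32 called higher and 2 lower.

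Genes of the cell cycle were higher at 31 °C. All 25 members with at least 100 counts had a positive log2 ratio, with a median of 0.68, but only 2 of 28 measured were called, or 5 under library totals. TOP2A, the topoisomerase that untangles chromosomes in mitosis, had 655 and 2111 scaled counts (3.22-fold, 2.78 to 3.75). RRM2, which makes deoxynucleotides, was higher by log2 0.68. PLK1, a mitotic kinase (168 and 374 counts), and MCM5, of the replication helicase (352 and 638), were not called. The cool stage 15 library had the lowest share of the list, 0.182% against 0.292% at 31 °C, the others lying between 0.263% and 0.757%.

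Matrix and contractile genes were mixed. Of 28 measured collagens and fibroblast matrix genes 8 were called higher and 3 lower. LOX, which cross-links collagen, had 79.8 and 371 scaled counts, and THBS2 and TNC, matrix proteins that modulate adhesion, log2 ratios of 1.48 and 1.35. COL6A3, a chain of microfibrillar collagen, was lower, at 2398 and 934. Among 12 smooth muscle genes ACTG2, an enteric actin, and TPM1, a tropomyosin, were higher at log2 1.05 and 0.52, and MYH11, the smooth muscle myosin, was lower, at 419 and 92.0 scaled counts. Of 5 measured macrophage and leukocyte genes 1 was called lower and 0 higher. LCP1, an actin bundler of leukocytes, had 467 and 108 scaled counts (4.31-fold lower, 3.04 to 6.26). SPI1, the master factor of macrophages, had 82 and 20 counts without a call. Only these 2 members had 100 counts or more in sum, so the level of leukocyte genes as a set is not shown. ACTB, the cytoplasmic actin, was higher at 54194 and 80712, and MARCKS, a substrate of protein kinase C, at 16885 and 24431.

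Several defining genes of the gonad had few counts. NR5A1, the regulator of steroidogenic cells, had 8 and 10 counts, DMRT1, of the testis pathway, 8 and 8, FOXL2, of the ovary pathway, 10 and 6, AMH 2 and 0, and the germ cell helicase DDX4 6 and 6. Of 38 measured entries of the gonad network 1 was called higher and 2 lower, and the 22 with 100 counts or more had a median log2 ratio of -0.01. Among these 22, 2 were at least 2-fold higher and 1 at least 2-fold lower. SOX9, given above with cartilage, is also on this list and was over 2-fold higher without a call. FGFR2, a receptor of FGF9 in mouse testis and of kidney branching, had 1911 and 1207 scaled counts (1.58-fold lower, 1.40 to 1.79), a call lost under library totals. CTNNB1, beta-catenin, was higher by 1.15-fold (1.12 to 1.19), and HSP90AB1, given above, was the third call. EMX2 (828 and 692 counts) and LHX9 (200 and 146), factors of the early genital ridge, and NR0B1 (200 and 94), a nuclear receptor of adrenal and gonad, were not called. Of 8 measured genes of steroid synthesis 0 were called by Fisher's exact test, and 1 was called higher under library totals.

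Whether the stage 15 temperature effect differs from that at the other 4 stages was tested with edgeR over the 10 *Apalone* libraries, with 3 residual degrees of freedom. The error of this test is the spread of temperature effects over those other stages, which cover trunk, AKG and gonad. It does not measure a spread between pools or embryos at stage 15. Of 10212 entries 0 passed an adjusted p of 0.05, 417 had an unadjusted p under 0.05, and DESeq2 called 10 of 7270. Without stage 19 edgeR called 20, and without stage 22 it called 29. ZIC1, COL9A1 and MATN4 had the lowest p by edgeR, each with adjusted p = 0.0789. Their stage 15 log2 effects exceeded the mean of the other stages by 6.30, 4.70 and 5.996, while the latter were -0.21, -0.10 and -0.45. IGFBP1 differed by -4.10 (edgeR adjusted p = 0.228).

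The direction of the 485 called entries was then read in pairs that share no library with stage 15, in which 2.46% (stage 12), 5.78% (stage 19) and 9.29% (*Chrysemys* stage 15) of all entries were called. In the stage 12 AKGs 188 of 215 entries higher at stage 15 were also higher at 31 °C (87.4%), against 53.0% of all entries with at least 100 counts, and 68 of them were called that way and 3 the opposite. Of the 270 lower ones 166 were lower (61.5%, against 47.0%), with 22 called the same way and 44 the opposite. In the stage 19 gonads 156 of 213 higher (73.2%, against 50.01%) and 241 of 270 lower (89.3%, against 49.98%) kept their sign. There 84 of the higher ones were called the same way and 21 the opposite, and 160 and 10 of the lower ones. In the stage 15 AKGs of *Chrysemys* the shares were 120 of 215 (55.8%, against 51.4%) and 169 of 270 (62.6%, against 48.6%). Here 67 of the higher ones were called the same way and 42 the opposite, and 83 and 27 of the lower ones. Stage 12 thus carried the warm-side genes and stage 19 the cool-side ones more often in sign, a difference that was not tested. The 270 lower entries include 42 ribosomal protein genes. Of the 48 genes of that list 32 were called higher at 31 °C at stage 12, and 42 were called lower at stage 19. The part of these genes in the shares was not tested.

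By group the pairs split further. The liver plasma proteins, with a median of -4.37 at stage 15, had -6.09 at stage 19 and -1.52 in *Chrysemys* at stage 15, but -0.05 at stage 12. Cartilage genes had 0.36 at stage 12 and 0.64 in *Chrysemys*, where 7 of 8 were called higher, but -1.56 at stage 19. Tubule genes had 0.71 at stage 12 and 0.58 in *Chrysemys*, and -0.27 and -0.25 at stages 19 and 22. Cell cycle genes had 0.71 at stage 19 and -0.45 in *Chrysemys*, where 10 of 28 were called lower. All the other pairs were read more deeply than the stage 15 *Apalone* pair, and calls follow depth. Numbers of calls here and above therefore do not compare between pairs. No member of these lists had its level compared between the species, whose tables were scaled separately.

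**Figure D5:**
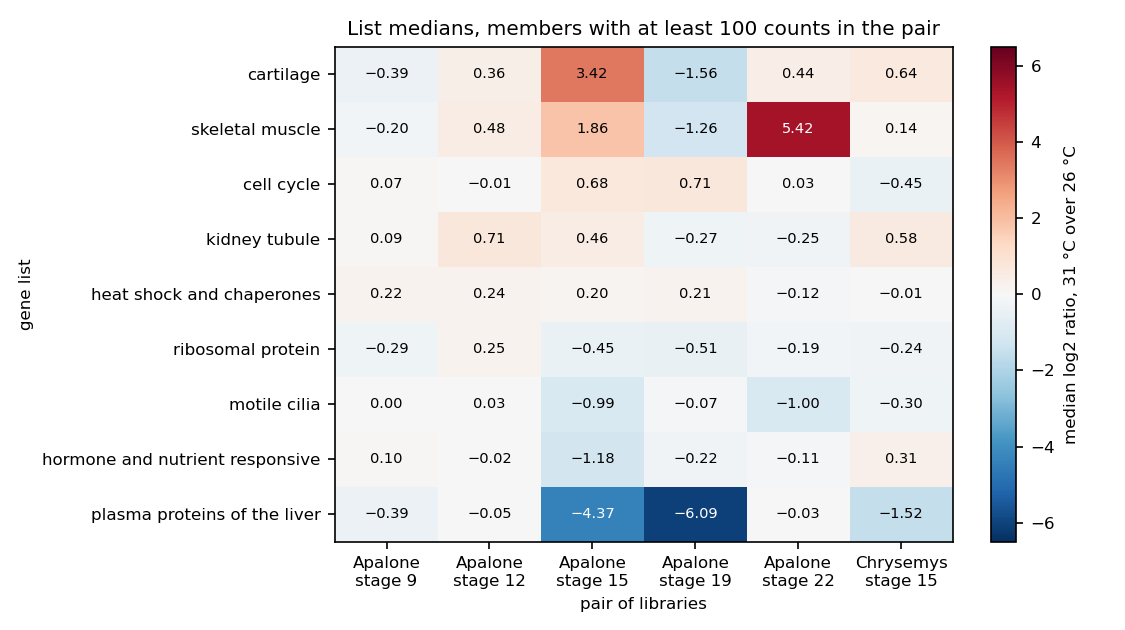
Median log2 ratio, 31 °C over 26 °C, of 9 gene lists (rows) in the 5 *Apalone* pairs and the stage 15 *Chrysemys* pair (columns), over members with at least 100 counts in the pair; red is higher at 31 °C. At stage 15 cartilage (3.42) and liver plasma proteins (-4.37) lie farthest apart, and the heat shock list stays between -0.12 and 0.24 in all 6 pairs. The liver plasma protein, motile cilia and hormone lists were drawn up after stage 15 values were seen.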

How the data were processed

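Paired-end RNA-seq libraries were made from pooled *Apalone* and *Chrysemys* embryos. The authors deposited raw read counts per gene, 1 table a species: per the labels and methods, reads were trimmed with Trimmomatic 0.27, mapped to annotated *Chrysemys* genes with GSNAP and counted without strand by HTSeq. Divergent softshell reads can be lost in mapping, and overlapping or duplicated genes can share reads. All deposited counts were even, so they were divided by 2 to give read pairs before testing. Symbols were given to 6784 of 12678 entries, from the study's annotation and, by identifier, from RefSeq. Measured members are therefore only part of most lists. The 19 cartilage symbols gave 8 entries, the 66 of motile cilia 25 and the 57 of liver plasma proteins 25. Read pairs of each gene were tested by Fisher's exact test (two-sided) with library sizes scaled by the 75th percentile (Python 3.11.15, scipy 1.17.1), with Benjamini-Hochberg adjustment over entries with a count, called at 1e-10. The stage 15 term was tested with edgeR 4.0.16 (quasi-likelihood, stage as a block, TMM) and with DESeq2 1.42.0. In simulated stage 15 counts the Fisher step recovered 59 of 100 genes changed 2-fold and 95 of 100 changed 4-fold, with 1 false call among 11721. Those counts were drawn with counting error only, so differences between pools, embryos or dissections were not covered. With simulated 8-fold changes the edgeR term recovered 187 of 200 genes, with 10 false calls. That simulation gave each gene the same mean at all stages, a fixed spread and no temperature effect at the other stages. Real temperature effects can vary by stage and tissue, so it does not give the power of the term in these libraries.

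Depth was 5544730 to 9501484 counts a library in *Apalone* and 11610098 to 24606646 in *Chrysemys*. Named genes were the 15 with the highest and the 15 with the lowest log2 ratio among called genes with a symbol and at least 200 counts, of each list the 4 called members with the largest change, every called member of the gonad network and heat shock lists, the 6 most abundant called genes in each direction, HPRT1, CIRBP and the leading genes of the stage 15 term. Others named were chosen after their values were seen. The members and lists were chosen with earlier results of these data known, and 3 of the lists were added after the values were seen. Alternatives in scaling, counting unit, filter, pseudocount and threshold are given in the closing section. Promoter motifs were not analysed here. Values of a few genes are not reported here.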

Additional observations from a re-analysis of the deposited data

How the results depend on the processing

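No paired analysis was possible because each temperature has 1 library at stage 15. The 485 calls (215 higher, 270 lower) became 995 (431 and 564) with deposited counts as they stand, 2827 (1333 and 1494) at an adjusted p under 0.05 and 186 (93 and 93) with a 2-fold minimum added. Library totals gave 503 calls, of which 59.4% were higher against 44.3%, and 419 were shared with the 485. With TMM, DESeq2 size factors, the other percentile scalings and filters of 10 or 100 counts the number lay between 482 and 494. The 556 entries changed 2-fold (286 and 270) became 1326 (714 and 612) at 20 counts and 2753 (1453 and 1300) with no filter. The edgeR stage 15 term, with 0 calls and 417 entries at an unadjusted p under 0.05, gave 5 calls with no filter and 10 by DESeq2, and leaving out 1 other stage gave 0 to 29, with 1 without stage 12. The causes were not tested.

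Of 101 named genes 5 lost their call under at least 1 of 8 settings (among them DIO3, SHMT1, FGFR2 and RDH10) and 0 changed sign. Depth limits the low genes: with 1 library a side, intervals cover counting error only and no spread between embryos.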

Other observations

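Retinoic acid genes went both ways. ALDH1A1, which makes retinoic acid, had 3677 scaled counts at 26 °C and 6329 at 31 °C, and CRABP2, which carries it to the nucleus, 706 and 1294, both called higher. RDH10, which makes retinal from retinol, was lower, at 1860 and 1142, a call lost under library totals. Of 10 measured members 2 were called higher and 1 lower.

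Glycolytic enzymes had a median log2 ratio of 0.01, with 4 of 16 measured called higher and 1 lower. PKM, pyruvate kinase, had 2962 and 5365 scaled counts and TPI1, triose phosphate isomerase, 4771 and 6992, whereas LDHB, a lactate dehydrogenase, had 15154 and 10668. Of 35 respiratory chain genes 2 were called higher, the ATP synthase subunits ATP5B (log2 0.53) and ATP5A1 (log2 0.44), and 0 lower. Splicing and RNA-binding proteins had 4 of 20 called higher and 0 lower (9 and 0 under library totals), with HNRNPD and HNRNPA2B1 at log2 0.35 and 0.32 beside CIRBP and HNRNPK.

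Chromatin regulators had 3 of 35 called higher, EZH2 of the Polycomb complex (log2 0.68), and the remodellers CHD4 and SMARCA4 (0.56 and 0.54), with a list median of 0.07. Of the 25 proteasome genes PSMD2 alone was called, at log2 0.81. In the list of endoplasmic reticulum folding PPIB, a prolyl isomerase, was higher at log2 0.45 and ATF4 lower, and under library totals 2 were called higher. Fisher's exact test called 0 of 15 cholesterol synthesis genes (1 under library totals), 0 of 5 clock genes, 0 of 12 temperature-gated TRP channels, 0 of 7 endothelial genes, 0 of 7 germ cell genes and 0 of 5 erythroid genes. Only 1 TRP channel, 1 germ cell gene and 2 clock genes reached 100 counts in sum.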
